A study of Mus musculus with 171 samples.

Results

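The hyperdynamic heart of this mouse expression database was compared with its own control heart with 4 arrays, from 2 of the 88 sources of the series. A hyperdynamic heart is one that contracts more strongly than normal. The labels describe 2 arrays as heart of transgenic (tg) hyperdynamic mice, with the source name Heart_HDmekt, and 2 as heart of the hyperdynamic control, with the source name Heart_CtrlMek. The arrays were taken by these source names, and all probes were used. On each 2-channel array the tissue's total RNA was read beside a universal reference RNA of mouse. The sources used here do not give the transgene, its promoter, or the strain, age and sex of either group. The letters mek in the source names resemble the common name of the MAP kinase kinases, but no label says what they stand for, and no tested probe was named for Map2k1 or Map2k2. Whether an array stands for 1 animal, for pooled animals or for a repeat of the same RNA is not stated either. Every p-value here therefore rests only on the spread between arrays of the same source, which may be technical. In the main fit that spread, also behind each standard error (SE), was pooled over all sources of the series. It is not the spread of the 4 arrays alone. The titles of both control arrays end in the same code, and so do those of both transgenic arrays.

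Heart muscle lives mainly on fatty acids, which are broken down by beta-oxidation in mitochondria and feed the citric acid cycle and the respiratory chain. Its beat depends on calcium that the pump encoded by Atp2a2 returns to the sarcoplasmic reticulum under the brake of phospholamban, encoded by Pln. Under load or in hypertrophy, heart muscle is known to raise a set of stress genes that are active in the fetal heart, the natriuretic peptides Nppa and Nppb foremost, and to lower genes of fatty acid use. The genes described here were grouped along those lines.

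Values are the deposited log ratios after each array was centred on its own median. The deposited ratios had also been centred per probe over all arrays, so 0 is the usual level of a probe in the series and levels of different probes are not compared. The log base and the direction are not stated; the likely reading is log2 of tissue over reference, since Nppa and Pln stood above all non-heart sources in both groups. Titles show array codes of different forms, called lots here. Array 1 of each group is from the AC lot and array 2 from the AF lot, so lot is balanced, and values are given in the order array 1, array 2. The 4 arrays held 8637 or 8638 values each. Correlation over all probes was 0.922 within the hyperdynamic pair, 0.898 within the control pair and 0.810 to 0.856 across the groups. The control arrays were wider, with standard deviations over probes of 0.955 and 0.960 against 0.801 and 0.762. A line through all genes gave a slope of 0.72 for the hyperdynamic mean on the control mean. This width moves with the groups, it touches every gene far from 0 in the control heart, and its part in the results was not tested. Of 13 heart genes meant to check the label, 5 had a named probe. Of these, Tnnt2 (-0.21 in the control heart, -0.20 in the hyperdynamic heart), Csrp3 (-2.05 and -1.62) and Myl7 (0.13 and 0.08) were not high in either group, and Csrp3 was highest in hippocampus.

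In the hyperdynamic heart the natriuretic peptide genes Nppa and Nppb, the stress genes Enah, Rcan1, Fhl1 and Tgfb2 and the matrix genes Thbs4 and Postn were higher. Of the measured genes of fatty acid use, the citric acid cycle and the respiratory chain, 44 of 64 were lower, and of calcium genes 5 of 25. With limma on all arrays, 1087 of 8638 probes (12.6%) differed at an adjusted p under 0.05, 435 higher and 652 lower. Taken 1 probe to a gene, 305 of 5702 genes (5.35%) were higher and 468 (8.21%) lower. The arrays of the groups did not overlap for 755 of these 773 genes, and for 56.5% of all genes tested. Scaling changed these counts. Quantile normalization, which gives all arrays the same distribution of values, left 90 probes higher and 50 lower, 0.982% of genes higher and 0.649% lower. Values as deposited gave 760 higher and 231 lower. Setting all arrays to a common median absolute deviation left 10 higher and 3 lower. For this reason quantile results are given beside the gene groups. With 1 probe to a gene, 10 of the 64 genes of fatty acid use, the cycle and the respiratory chain stayed lower after quantile normalization. No calcium gene did, and at a common median absolute deviation no gene of these groups was called. Of 13 fetal and hypertrophy genes, 6 were higher after quantile normalization and 2 at a common median absolute deviation, where no matrix gene was called. Most calls ran toward 0: in 275 of the 305 higher genes the control mean was below 0, and in 447 of the 468 lower genes it was above 0. Over all 5702 genes it was below 0 in 2808. The control mean is itself part of the difference, so these counts are not independent of the calls.

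**Figure D1:**
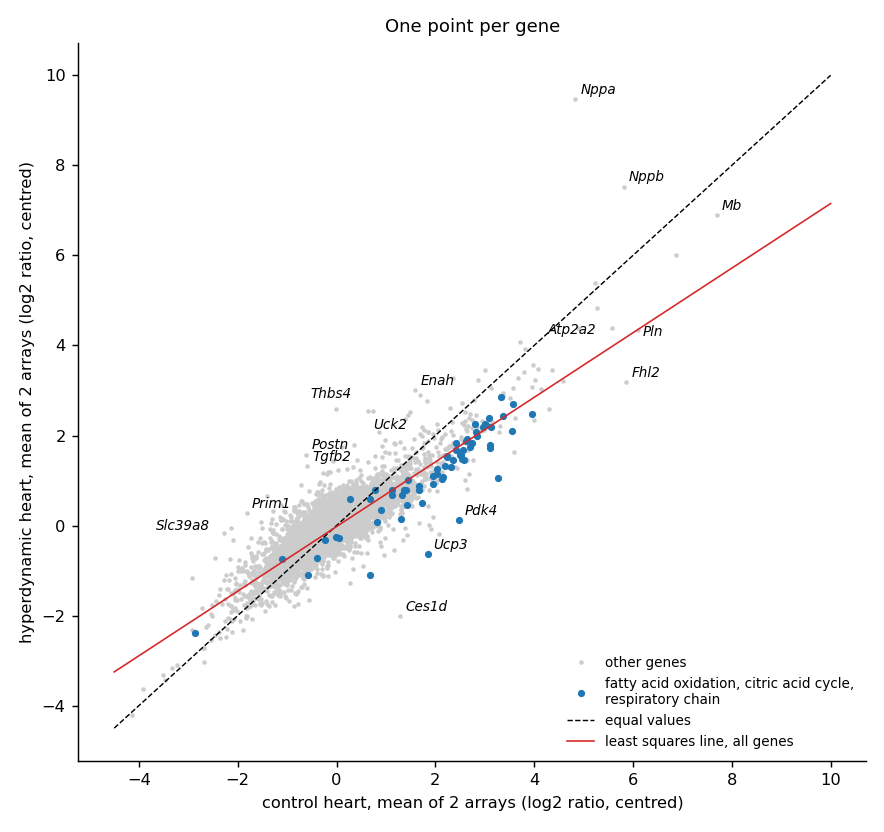
Mean log2 ratio of 2 control arrays (horizontal) against that of 2 hyperdynamic arrays (vertical), 1 point per gene, with energy metabolism genes in blue, the line of equal values dashed and the least squares line in red. The red line has a slope of 0.72, Nppa stands at 4.83 against 9.47, and Ces1d, Ucp3 and Pdk4 lie below both lines.

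Nppa, which encodes atrial natriuretic peptide, a hormone that makes the kidney pass salt and water, had the largest difference of all genes tested. Its control arrays read 4.75 and 4.92 and its hyperdynamic arrays 9.69 and 9.25. The hyperdynamic heart was the highest of 88 sources, above the atrium at 7.95, and the groups lay far apart. The difference was 4.64 with a standard error of 0.48 (limma adjusted p = 2.41e-12), which is 24.9-fold if the scale is log2. It was 4.94 within the AC lot, 4.34 within the AF lot and 3.17 after quantile normalization. Nppb, which encodes brain natriuretic peptide, read 5.50 and 6.12 in control heart and 7.58 and 7.47 in hyperdynamic heart, and the hyperdynamic heart was again the highest source. Its difference was 1.71 with a standard error of 0.40 (limma adjusted p = 0.00178). With each array left out in turn the difference ran from 1.40 to 2.03, and Nppb was not called without control array 1.

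Both peptide genes lie close together on chromosome 4, and their promoters are shown because Nppa had the largest difference and Nppb is its neighbour and close relative. The bases before each RefSeq start site (GRCm38.p6, plus strand, 5′ to 3′) are given below, with TGATAA, a form of the GATA factor motif, and TATAAA in capitals. The stretches are chr4:148000472-148000721 for Nppa and chr4:147985650-147985899 for Nppb.
Nppa: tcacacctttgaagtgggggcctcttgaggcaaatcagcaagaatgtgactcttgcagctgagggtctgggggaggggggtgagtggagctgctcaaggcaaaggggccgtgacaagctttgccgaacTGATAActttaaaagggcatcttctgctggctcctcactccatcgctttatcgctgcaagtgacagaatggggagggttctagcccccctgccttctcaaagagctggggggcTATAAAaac
Nppb: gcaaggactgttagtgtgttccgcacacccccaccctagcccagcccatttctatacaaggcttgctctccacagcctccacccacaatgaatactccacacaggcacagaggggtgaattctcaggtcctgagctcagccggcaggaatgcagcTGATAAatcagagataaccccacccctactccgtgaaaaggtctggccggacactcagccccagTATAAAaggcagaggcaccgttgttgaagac
TGATAA begins 122 bases before the start in Nppa and 95 in Nppb, and TATAAA 9 and 31 bases before it. Searched on both strands in windows of 250 bases, TGATAA occurred in 7.94% of 32851 promoters and TATAAA in 12.4%. Of the 6 stress genes called higher, Nppa and Nppb held TGATAA, and Nppa, Nppb, Fhl1 and Tgfb2 held TATAAA. The motifs share no base in either promoter. Gata4, which encodes a GATA factor of heart muscle, read 1.24 and 1.19 in control heart against 0.80 and 0.63. Its difference of -0.51 (limma adjusted p = 0.0263) lost its call when any of the 4 arrays was left out, and its other probes read 0.48 and -0.43 without a call.

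Of 13 measured genes of the fetal and hypertrophy programme, 6 were higher and 2 lower, with a median difference of 0.46 against -0.08 for all genes. The 6 higher genes also passed after quantile normalization, while the lower genes, Fhl2 and Gata4, did not. At a common median absolute deviation only 2 of the 13 were called, both higher. Beside the peptides, the 6 higher genes were Enah, Rcan1, Fhl1 and Tgfb2. Enah encodes an actin regulator at cell contacts and read 1.73 and 1.44 in control heart against 2.92 and 3.09 (difference 1.42 ± 0.25 SE). Both Enah probes were called, at 1.41 and 1.42. Rcan1, whose product is an inhibitor of the phosphatase calcineurin and which calcineurin signalling induces, read 1.51 and 1.37 against 2.47 and 2.42 (1.01 ± 0.22 SE). Fhl1, a LIM domain protein of the sarcomere, read 0.97 and 0.50 against 2.54 and 2.57 (1.82 ± 0.35 SE). Tgfb2, a growth factor that acts on matrix and muscle cells, read -0.43 and -0.76 against 1.25 and 1.39 (1.91 ± 0.28 SE). Enah, Rcan1 and Tgfb2 were higher in the hyperdynamic heart than in any other source, whereas Tgfb2 in control heart ranked 67th of 88. Myh7, the slow myosin heavy chain that often rises in stressed heart, read -0.01 and -0.18 against -0.14 and -0.29. Its groups overlapped and it was not called (limma adjusted p = 0.802). In ventricle the probe read -0.16 and -0.79.

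**Figure D2:**
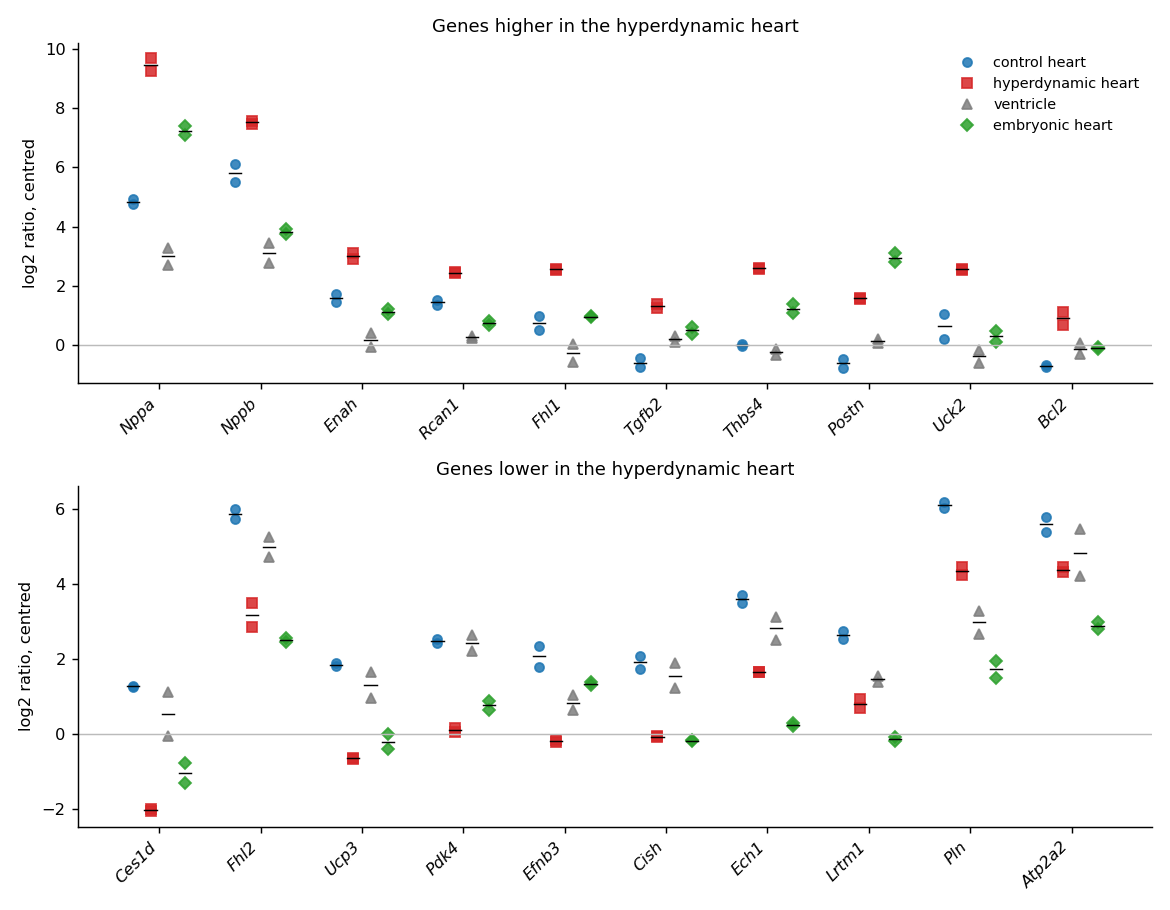
Centred log2 ratio (vertical) of 10 higher and 10 lower genes on each array of control heart, hyperdynamic heart, ventricle and embryonic heart, with short black lines at the means of 2 arrays. Hyperdynamic arrays of Nppa stand at 9.69 and 9.25 above control arrays at 4.75 and 4.92, and those of Ces1d at -2.05 and -1.99 below control arrays at 1.29 and 1.27.

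Fhl2, a LIM domain partner of Fhl1 that sits at the Z disc and marks ventricle here, moved opposite to it. It read 5.73 and 6.00 in control heart and 2.86 and 3.50 in hyperdynamic heart, and the groups did not overlap. The difference was -2.68 with a standard error of 0.49 (limma adjusted p = 5.01e-05). Ventricle stood at 5.25 and 4.70, near the control heart. After quantile normalization the difference was -1.40 and was not called. Fhl2 was the only called gene among 12 measured members of the sarcomere and Z disc list, whose median was -0.08, the same as that of all genes. No sarcomere gene was called higher, and 1 was higher at an unadjusted p under 0.05. Cryab, the small heat shock protein that guards the Z disc, read 3.81 and 3.61 against 3.92 and 4.23 and was not called.

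Of 25 measured calcium genes, 5 were lower and 1, Rcan1, higher. Over all genes 8.21% were lower. The mean level of the 25 was 1.11 and 0.99 on the control arrays. Of genes outside fatty acid use, the cycle and the respiratory chain, 31.7% were lower at a control mean of 1 to 2. At 0 to 1 the share was 5.31%, and above 3 it was 36.4%. Pln read 6.19 and 6.01 in control heart against 4.24 and 4.44, and its difference was -1.76 ± 0.37 SE (limma adjusted p = 0.000438). It has 4 probes, and the other 3 differed by -0.91 to -1.09, the last without a call, so the size of its fall rests on the probe. Ventricle stood at 3.29 and 2.66 on the first Pln probe, below hyperdynamic heart. On the probe at -1.09, ventricle read 7.87 and 7.08, above hyperdynamic heart at 6.90 and 6.72. Atp2a2, the calcium pump that Pln restrains, read 5.79 and 5.38 against 4.45 and 4.31 (-1.20 ± 0.22 SE). Jph2, which ties the sarcoplasmic reticulum to the cell membrane, differed by -1.20, and Hrc, a calcium-binding protein of its lumen, by -1.13. Rcan2 differed by -0.73 and lost its call without any 1 of the 4 arrays. All 5 were highest of all sources in control heart. With 1 probe to a gene, none of the 5 was called after quantile normalization, with differences of -0.24 to -0.73, while Rcan1 was. Of the other Pln probes, the one at -1.09 was called lower after quantile normalization, at -1.77. Without control array 1, Jph2 and Rcan2 were not called and 3 calcium genes were lower.

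Genes of fatty acid use formed the group with the most called members after quantile normalization. Of 20 measured, 10 were lower and none higher, with a median difference of -0.73, and 8 of them stayed lower after quantile normalization. At an unadjusted p under 0.05, 13 were lower and none was higher. The count was 9 or 10 when any 1 array was left out. Values as deposited called 10 lower and 2 higher. Ucp3, an uncoupling protein of muscle mitochondria, read 1.89 and 1.80 in control heart and -0.63 and -0.65 in hyperdynamic heart (-2.49 ± 0.35 SE, limma adjusted p = 1.57e-07). Pdk4, the kinase that shuts off pyruvate oxidation when fat is burned, read 2.53 and 2.44 against 0.05 and 0.18 (-2.37 ± 0.38 SE, limma adjusted p = 3.13e-06). Ventricle was at 1.66 and 0.97 for Ucp3 and at 2.65 and 2.22 for Pdk4, so for both genes control heart and ventricle lay above hyperdynamic heart. Over the 20 genes, mean levels were 1.45 and 1.23 in control heart and 0.53 and 0.42 in hyperdynamic heart. Ventricle stood between, at 1.23 and 0.86.

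Enzymes of beta-oxidation itself were lower as well. Hadhb, a subunit of the trifunctional protein, read 4.05 and 3.88 against 2.48 and 2.49 (-1.48 ± 0.22 SE). Acadm, the medium-chain acyl-CoA dehydrogenase, read 3.68 and 3.44 against 2.04 and 2.15 (-1.46 ± 0.22 SE). Etfa and Etfb, subunits of the flavoprotein that carries electrons away from these dehydrogenases, differed by -1.38 and -2.22. Hyperdynamic arrays of Etfb disagreed, at 2.28 and -0.17, so its difference was -0.99 without array 2 and -3.45 without array 1. Ech1, an isomerase for unsaturated fatty acids outside the list, read 3.71 and 3.49 against 1.65 and 1.64 (-1.96 ± 0.20 SE, limma adjusted p = 1.39e-12). The other called members were Mlycd, Eci2, Decr1 and Acadsb, at -0.86 to -1.23, of which Decr1 and Acadsb were not called after quantile normalization. Acadsb was also not called without control array 1 or hyperdynamic array 2. Not called were, among others, Cd36, the fatty acid transporter of the cell surface, whose control arrays lay apart at 4.36 and 2.29 (-0.46), and Cpt1a, the liver form of the mitochondrial gate enzyme (0.36). The letters AAGGTCA, a half-site of nuclear receptors searched on both strands, occurred in the promoter of 1 of the 9 lower members with a promoter sequence, Acadm, and in 4.08% of all promoters.

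**Figure D3:**
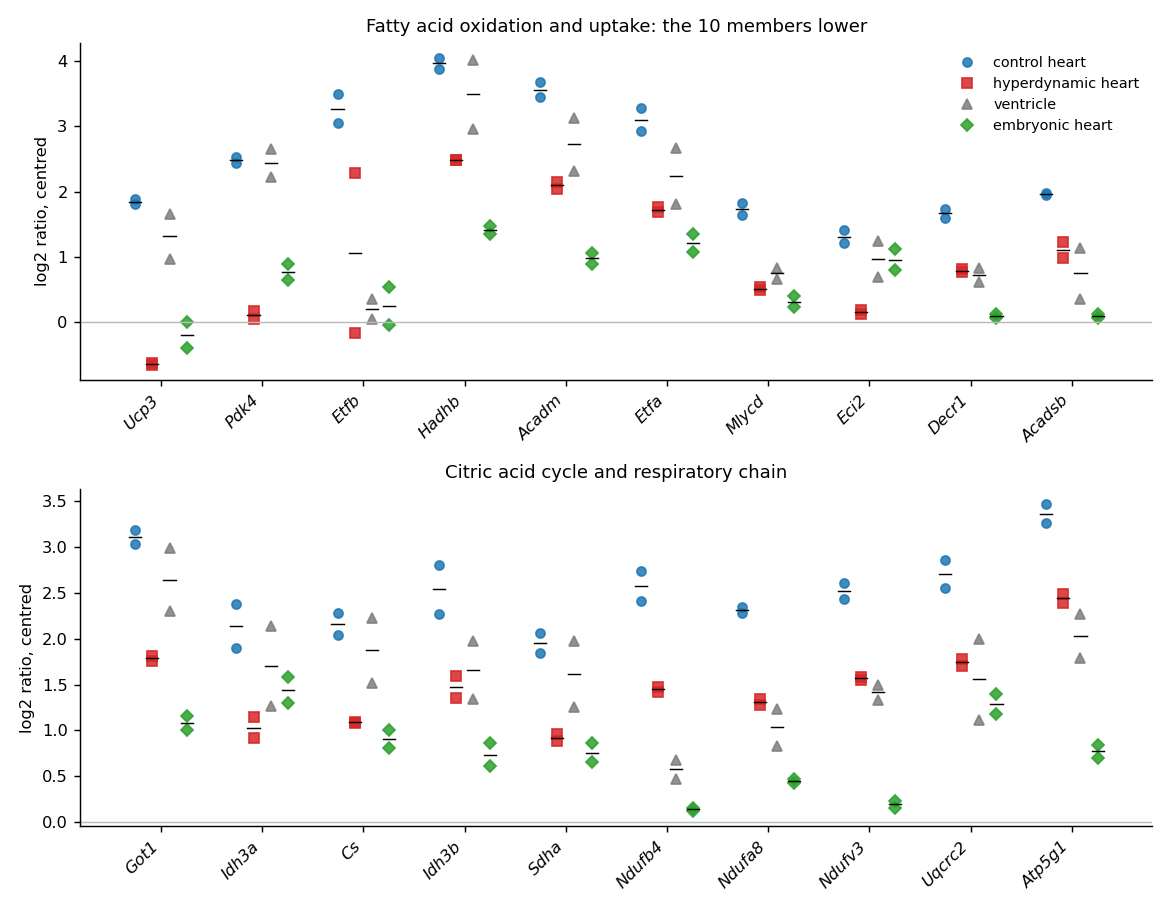
Centred log2 ratio (vertical) of 10 fatty acid genes and 10 genes of the citric acid cycle and respiratory chain on each array of control heart, hyperdynamic heart, ventricle and embryonic heart, with black lines at the means. Control arrays stand above hyperdynamic arrays for each gene drawn, and the hyperdynamic arrays of Etfb lie apart, at 2.28 and -0.17.

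All 14 measured genes of the citric acid cycle and its shuttles had a negative difference, 10 of them called lower (median -0.90). Cs, citrate synthase, read 2.28 and 2.05 against 1.10 and 1.08 (-1.08 ± 0.19 SE, limma adjusted p = 2.62e-05). Got1, an aminotransferase of the malate-aspartate shuttle, read 3.19 and 3.03 against 1.81 and 1.76 (-1.32 ± 0.26 SE), and it alone passed after quantile normalization. Without control array 1, 5 of the 14 were called. All 30 genes of the respiratory chain and ATP synthase were likewise below 0, with 24 called lower and a median of -0.80. Ndufb4, a subunit of complex I, read 2.74 and 2.42 against 1.42 and 1.48 (-1.13 ± 0.16 SE, limma adjusted p = 2.18e-07). It was the only 1 of the 30 called after quantile normalization, where the median of the list was -0.33 against -0.04 for all genes. Uqcrc2 of complex III differed by -0.97, without a call when control array 1 was left out, and Atp5g1 of ATP synthase by -0.93. Ndufa7 had the largest difference, -1.80, but its arrays overlapped, at 0.06 and 1.32 against -3.13 and 0.92, and it was not called without control array 2 or hyperdynamic array 1. Without control array 1, 11 were called, and without hyperdynamic array 1, 15. Median differences were -0.98 within the AC lot and -0.64 within the AF lot for the respiratory chain, and -0.98 and -0.71 for the cycle. Mean levels of the respiratory chain list were 2.26 and 2.10 in control heart and 1.31 and 1.49 in hyperdynamic heart. Ventricle stood at 1.03 and 0.65, below both. For the cycle, control heart was at 2.26 and 1.97, hyperdynamic heart at 1.30 and 1.29 and ventricle at 1.77 and 1.25. What sets these levels apart was not tested.

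These energy genes are high in heart, where control arrays were wide, so they were set beside other genes of the same control level. Among genes with a control mean of 2 to 3, 23 of 25 energy genes were lower, against 46 of 85 others (54.1%). Their median difference was -0.88 against -0.62, and -0.36 against -0.14 after quantile normalization. With a control mean of 1 to 2, 10 of 14 energy genes were lower against 241 of 760 others (31.7%), with medians of -0.83 and -0.52. Above 3, it was 10 of 12 against 12 of 33, with medians of -0.92 and -0.78, and -0.44 and -0.12 after quantile normalization. Within each of these ranges above 1 the energy genes stood lower than the others, and the others stood below 0 as well. From 0 to 1, 1 of 7 energy genes was lower against 5.31% of the others, with medians of -0.34 and -0.16. From -1 to 0 it was 0 of 4, with medians of -0.29 and 0.06. Below -1 it was 0 of 2, and their median of 0.41 was above that of the others, 0.33. The ranges were cut on the control mean, which is itself part of the difference. In all, 44 of 64 energy genes were lower, against 7.52% of 5638 other genes. After quantile normalization 10 of the 64 were lower, against 27 of the others. At a common median absolute deviation no energy gene was called.

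Of 14 measured genes of sugar use, 4 were lower: Eno3, the muscle enolase (-1.36), Pdha1 and Dlat of the pyruvate dehydrogenase complex (-0.94 and -0.74) and Gys1, glycogen synthase (-0.67). Gys1 lost its call whichever array was left out, and Pdha1 without control array 1. None of these passed after quantile normalization, where Hk1, a hexokinase, was the only called gene, higher by 0.86. Centred on medians, Hk1 read 1.39 and 1.17 against 2.00 and 1.73 and was not called (0.59, limma adjusted p = 0.0755), while it was called higher in the values as deposited. Of 10 genes of energy transfer, 4 were lower, among them Prkaa2, a catalytic subunit of the energy sensor AMP kinase (-0.89), and without control array 1 the count was 1. Prkaa1, its other catalytic subunit, was called higher by 0.67, but its other probes read -0.38, -0.39 and -0.15 without a call. Mb, myoglobin, read 7.84 and 7.55 against 6.99 and 6.78, and Ckmt2, mitochondrial creatine kinase, 7.00 and 6.73 against 6.11 and 5.92. Neither was called (-0.80 and -0.85). Mean levels on the control arrays were 1.46 and 1.31 for the sugar list and 2.31 and 2.36 for energy transfer. Of genes outside the energy lists above, 31.7% were lower at a control mean of 1 to 2 and 54.1% at 2 to 3. Of 14 antioxidant genes, 4 were lower, led by Gstk1 (-1.85), which lost its call without any 1 of the 4 arrays. Without control array 1 no antioxidant gene was called. After quantile normalization no gene of the energy transfer or antioxidant lists was called.

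**Figure D4:**
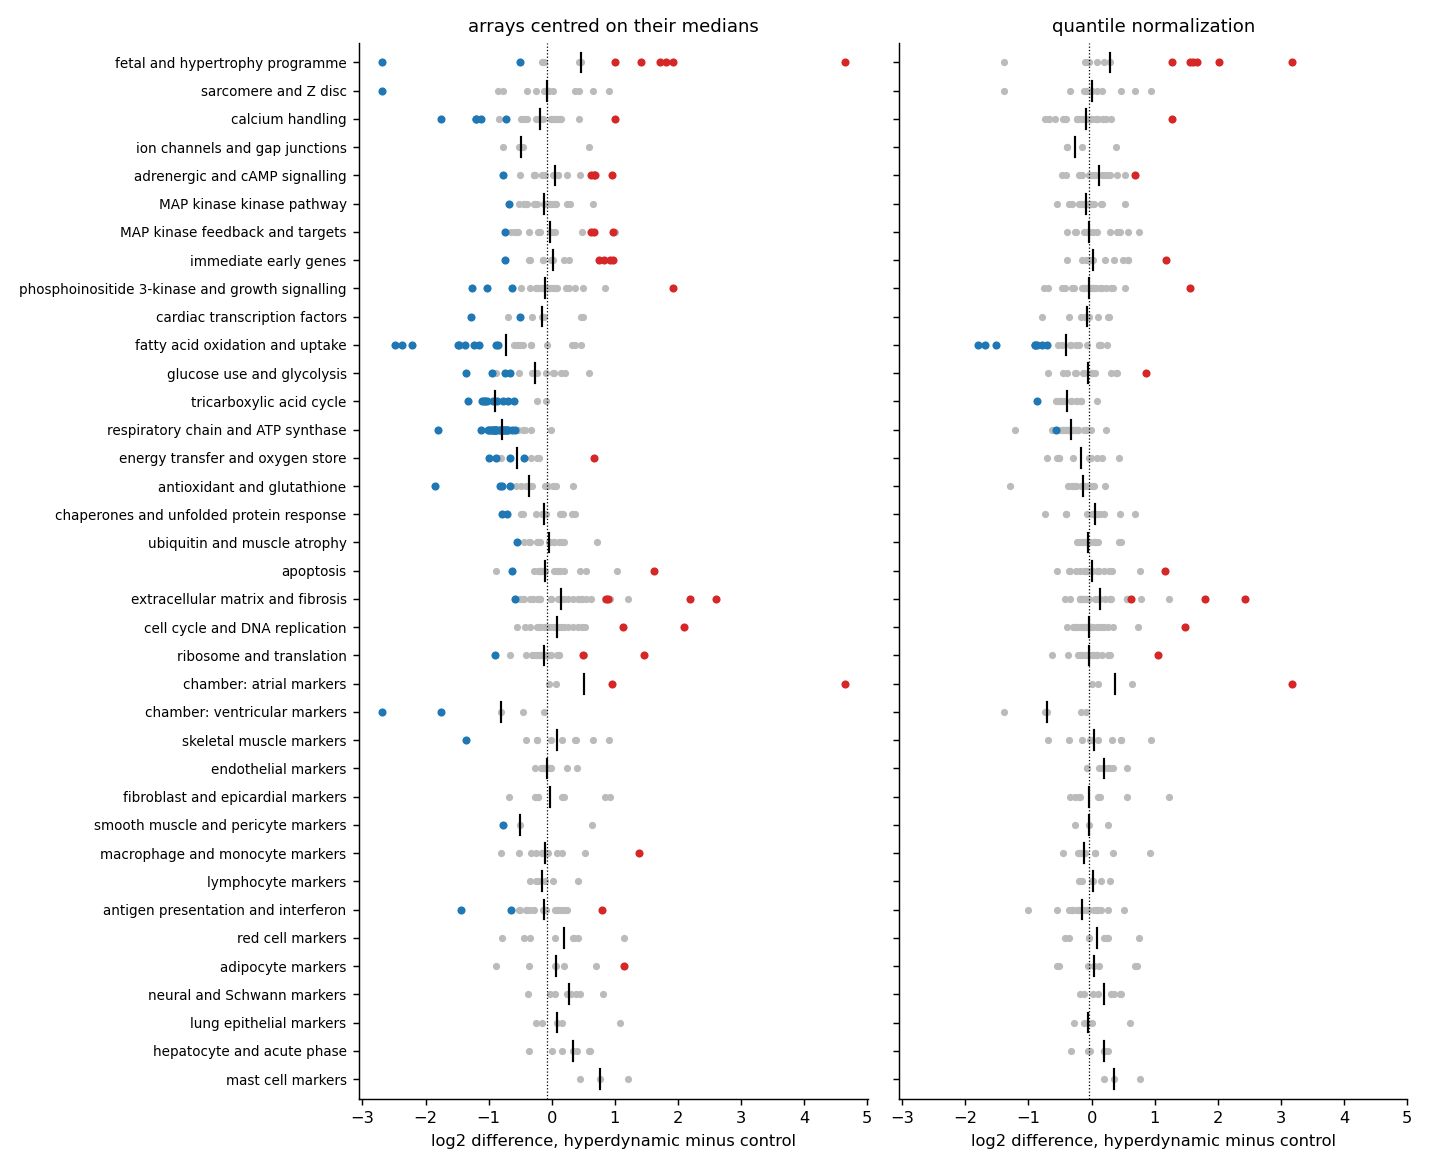
Log2 difference of each measured member of 37 gene lists (points), with arrays centred on their medians (left) and after quantile normalization (right), red where called higher, blue where called lower and grey where not called. Black ticks mark list medians and the dotted line the median of all genes. In the left panel 24 of 30 respiratory chain members are blue, in the right panel 1, while 6 of 13 fetal and hypertrophy members are red in both.

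Matrix genes were led by Thbs4 and Postn. Thbs4, a thrombospondin made in stressed heart muscle, read -0.05 and 0.03 in control heart against 2.62 and 2.56 (2.60 ± 0.50 SE, limma adjusted p = 0.000103), and 2.42 after quantile normalization. Postn, periostin, a protein of active fibroblasts and heart valves, read -0.47 and -0.76 against 1.54 and 1.60 (2.19 ± 0.33 SE, limma adjusted p = 6.4e-07). Of 31 matrix genes 4 were higher and 1 lower, with a median difference of 0.15. The others higher were Fn1, fibronectin, at 0.89, and Col5a2, a fibrillar collagen, at 0.86, and neither was called when any 1 array was left out. Other Col5a2 probes differed by 0.72 and 0.29, without a call. Itga7, a laminin receptor subunit of muscle, was lower (-0.59), though not without control array 1 or without either hyperdynamic array. After quantile normalization Thbs4, Postn and Itgb5, an integrin subunit, were higher. Col1a1 differed by 0.84 and was not called. Olfml3, an extracellular protein outside the list, read 0.17 and 0.05 against 1.71 and 1.78 (1.64 ± 0.22 SE). None of 8 fibroblast and epicardial markers was called, and 2 were higher at an unadjusted p under 0.05. Their mean level was 0.20 and 0.08 in control heart against 0.19 and 0.27. In tissue RNA, more cells of a type and more RNA per cell cannot be told apart.

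Genes of the MAP kinase pathway, which the source names bring to mind, showed little. Of 17 measured members 1 was called: Mapk9, a stress kinase of the JNK group, at -0.67, and it was not called after quantile normalization, nor without array 1 of either group. Of 16 feedback genes and targets, 3 were higher (Myc 0.97, Emp1 0.67, Spred1 0.62) and Fosl2 was lower (-0.74), and none passed after quantile normalization. Without control array 1 none of these 4 was called. Of 13 immediate early genes, Myc, Ccn1, Btg2 and Nr4a1 were higher and Fosl2 lower, and without control array 1 none was. Another Btg2 probe differed by 0.03 and another Nr4a1 probe by 0.69, both without a call. Ccn1, a matricellular protein, read 1.05 and 0.93 against 1.82 and 1.99, and it alone passed after quantile normalization. Ccn1 lost its call in the median-centred values when any 1 array was left out. Grk5, a kinase that turns off adrenergic receptors, was higher by 0.96, but its control arrays read 0.43 and -1.19 against 0.56 and 0.60, so the difference was 0.14 within the AC lot and 1.78 within the AF lot. It was not called without control array 2. Of 16 adrenergic genes 4 were called higher and 1, the phosphodiesterase gene Pde4a (-0.77), lower. Without either control array or without hyperdynamic array 2, 1 was higher, and after quantile normalization Grk5 alone was called. Of 24 growth signalling genes Tgfb2 was higher, and Agtr1a, the angiotensin II receptor (-1.26), Akt2, a kinase of insulin signalling (-1.03), and Stat3 (-0.64) were lower. Agtr1a and Stat3 lost their calls without any 1 array, another Akt2 probe read -0.26, and only Tgfb2 passed after quantile normalization. Bcl2, which guards cells against apoptosis, read -0.68 and -0.75 against 0.67 and 1.12 (1.61 ± 0.25 SE, limma adjusted p = 8.27e-07), and 1.17 after quantile normalization. It was 1 of 2 called genes among 19 of the apoptosis list.

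Chamber genes were read next. Of 4 measured atrial markers, Nppa and Dkk3 (0.96) were higher, and only Nppa after quantile normalization. Sln, sarcolipin, read 0.70 and -0.19 against 0.26 and 0.37, and Myl7, the atrial light chain, -0.32 and 0.58 against 0.02 and 0.15, with overlapping groups. All 4 were called higher in atrium than in ventricle. Of 5 ventricular markers, Fhl2 and Pln were lower and Mb, Lbh and Myh7 were not called. All 5 had a difference below 0, with a median of -0.80, and 4 were lower at an unadjusted p under 0.05. Over all genes the median was -0.08. The mean level of the 5 was 4.17 and 4.05 on the control arrays. Genes outside the energy lists with a control mean above 3 had a median of -0.78. After quantile normalization none of the 5 was called and their median was -0.71, against -0.12 for those high genes. Markers of other tissues and cells showed few calls. Endothelial markers held 0 called of 10 (none at an unadjusted p under 0.05), with a mean level of 0.79 and 0.89 against 0.83 and 0.80. Lymphocyte markers held 0 of 6, red cell markers 0 of 8, neural markers 0 of 8, lung markers 0 of 5, liver markers 0 of 7 and mast cell markers 0 of 3, and at an unadjusted p under 0.05 red cell, neural and mast cell markers held 1 each and the others none. These counts take 1 probe to a gene: a second probe of Klf1, a red cell transcription factor, was higher by 1.36, also after quantile normalization and with each array left out, while the probe counted read 0.33. Cidec was called higher among 7 adipocyte markers (1.15), though not without either control array or hyperdynamic array 1. Of 13 macrophage markers 1 was called, Ccl3, whose control arrays read -0.02 and -2.13 against 0.18 and 0.45 and which was not called without control array 2. Of 10 skeletal muscle markers 1 was lower, Eno3, also made in heart, and of 3 smooth muscle markers 1, Smtn (-0.78), which lost its call whichever array was left out. After quantile normalization Cidec, Ccl3, Eno3 and Smtn were not called. Mean levels of lung, liver and mast cell markers ran from -2.12 to -0.77 on the 4 arrays and from -0.33 to 0.78 in ventricle. Their part in the results was not tested.

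The remaining lists held few calls. Of 9 cardiac transcription factors, Gata4 and Nfatc2, a factor that calcineurin activates, were lower. Nfatc2 read 2.08 and 2.00 in control heart against 0.75 and 0.76 (-1.29), the groups lay apart, and after quantile normalization it was not called. Of 23 cell cycle genes 2 were higher and none lower, of 23 ribosome and translation genes 2 were higher and 1 lower, and of 18 antigen presentation and interferon genes 1 was higher and 2 lower. Of 12 chaperone genes 2 were lower and of 15 ubiquitin and atrophy genes 1, while none of 4 ion channel genes was called by limma, with 2 lower at an unadjusted p under 0.05. After quantile normalization 1 cell cycle gene and 1 ribosome gene were higher and no other member of these lists was called.

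Beside Ech1, given above, the largest falls outside these lists included those of Ces1d, Lrtm1, Cish, Efnb3, Hsdl2, Zdhhc21 and Galm. Ces1d, a carboxylesterase that splits stored fat, read 1.29 and 1.27 in control heart and -2.05 and -1.99 in hyperdynamic heart. It had the most negative difference of all genes, -3.30 ± 0.40 SE (limma adjusted p = 2.41e-09), and -2.43 after quantile normalization. Control heart ranked 21st of 88 sources for it and hyperdynamic heart 82nd. Lrtm1 read 2.52 and 2.75 against 0.93 and 0.70 (-1.82 ± 0.15 SE) and both of its probes were called. Cish, a feedback inhibitor of cytokine signalling, read 1.73 and 2.09 against -0.05 and -0.09 (-1.98 ± 0.25 SE). Efnb3, a membrane-bound guidance ligand, read 2.35 and 1.79 against -0.16 and -0.21 (-2.26 ± 0.27 SE). Hsdl2 (-1.77), Zdhhc21 (-1.71) and Galm (-1.71) completed them, and all 7 were called after quantile normalization. Mfsd14b (-1.67) was also among the lowest, but its hyperdynamic arrays read 0.75 and -1.39 and it lost its call without control array 1 or hyperdynamic array 2.

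Among the strongest rises, Uck2, a kinase that salvages uridine, read 1.06 and 0.20 against 2.58 and 2.53 (1.92 ± 0.29 SE) and was highest of all sources in hyperdynamic heart. In others the control heart lay far below the rest of the series. Slc39a8, a metal ion transporter, had a control mean of -2.27, with array 2 at -1.55, against -0.16 and -0.19, while ventricle stood at -0.13 and 0.19. Control heart was the lowest of 88 sources for Slc39a8, Prim1, 1700019D03Rik, Scg3 and Leap2, 5 of the 15 genes with the highest differences, and hyperdynamic heart was not the highest for any of these. Prim1, the DNA primase, read -2.59 and -1.05 against 0.38 and 0.16, and its difference was 2.87 or 1.32 depending on the array left out. Dcpp1 and Apoc2 were low in control heart too, at -1.69 or below. Dcpp1, Apoc2 and Leap2 were not called after quantile normalization, nor without 1 or more of the arrays. Over all 305 higher genes, control heart was the lowest source for 40 and hyperdynamic heart the highest for 13. Over the 468 lower genes, control heart was the highest source for 156 and hyperdynamic heart the lowest for 5. Such ranks were not counted over all genes tested, so they cannot be read as particular to the called genes. By interquartile range the control arrays ranked 6 and 8 from the widest in the series, and the hyperdynamic arrays 15 and 31. The control values also entered the calls, so the ranks are not independent of them.

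**Figure D5:**
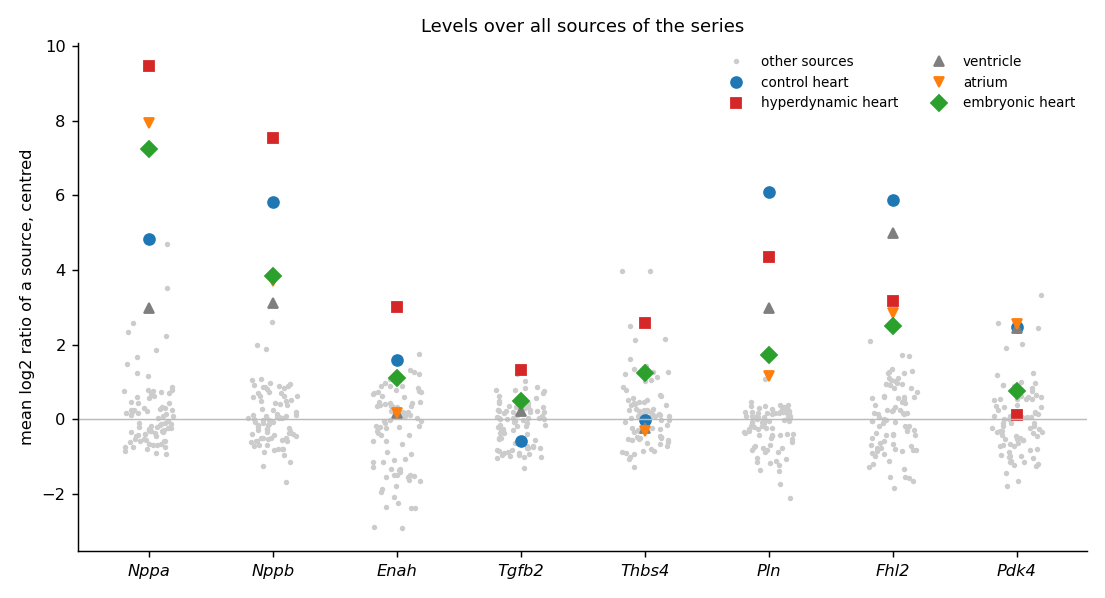
Mean centred log2 ratio (vertical) of 8 genes in each source of the series, with heart sources as coloured symbols and other sources as grey points. Hyperdynamic heart is the highest source for Nppa, Nppb, Enah and Tgfb2, control heart for Pln and Fhl2, and for Pdk4 hyperdynamic heart, at 0.11, lies among the non-heart sources.

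The named genes were also read on other heart arrays of the series, which share no array with the transgenic comparison: embryonic wild-type heart of day 14.5, ventricle and atrium, 2 arrays each, all of the AF lot. Between embryonic heart and ventricle, 866 genes (15.2%) were higher in embryo and 179 (3.14%) lower. This balance changed with scaling. By probe, 1322 were higher and 254 lower, but 1521 and 1638 after quantile normalization and 1770 and 976 at a common median absolute deviation. The embryo counts and overlaps below hold for median-centred values only. Nppa was higher in embryo by 4.25, Postn by 2.81, Thbs4 by 1.47, Fhl1 by 1.22 and Enah by 0.95, each called. Nppb (0.72), Tgfb2 (0.28), Rcan1 (0.49) and Uck2 (0.68) were not called. Lower in embryo and in hyperdynamic heart were Ech1 (-2.56 in embryo), Fhl2 (-2.47), Hadhb (-2.08), Atp2a2 (-1.94), Acadm (-1.75), Cish (-1.72), Pdk4 (-1.67), Lrtm1 (-1.61), Ces1d (-1.58) and Ucp3 (-1.52). Of the 468 genes lower in hyperdynamic heart 94 were lower in embryo (20.1%), and these 94 are 52.5% of the 179. Of the 305 higher genes 32 were higher in embryo (10.5%), which is 3.70% of the 866. Among fatty acid genes 11 of 20 were lower in embryo, among cycle genes 8 of 14 and among respiratory chain genes 8 of 30. Efnb3 and Bcl2 did not differ between embryo and ventricle past the threshold, at 0.51 and 0.03.

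Between atrium and ventricle, 203 genes (3.56%) were higher in atrium and 280 (4.91%) lower. The atrial arrays correlated with each other at 0.540 and array 1 of the pair with ventricle at 0.790 and 0.786, so that comparison rests on unlike arrays. Nppa was higher in atrium by 4.96 and Fhl1 by 1.66, and Pln (-1.81), Fhl2 (-2.13), Hadhb (-1.25), Acadm (-1.27) and Ech1 (-1.31) were lower. Pdk4 (0.11), Ucp3 (-0.27), Ces1d (0.17), Thbs4 (-0.08), Postn (0.50) and Tgfb2 (0.21) were not called between the chambers.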

How the data were processed

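RNA of 4 heart samples, within a series of 171 2-channel arrays from 88 sources, was read on 8734 probes. The authors' deposited values, read here as log2 ratios to a universal mouse reference, had been centred per probe: the median over arrays lay within 0.001 of 0 for 8709 probes. The sources used here do not state image analysis, background correction or dye orientation. Array medians ran from -0.92 to 0.24, so each array was centred on its median. limma 3.58.1 in R 4.3.3 was fitted to all arrays with 1 mean per source, to probes with a value on at least 80% of arrays, at a Benjamini-Hochberg adjusted p under 0.05. Of all probes 7540 had 1 gene symbol. For a gene with several probes, the one with most values was used, then the lowest ID.

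Genes named are the 15 highest and 15 lowest called differences whose arrays did not overlap, up to 4 members per list by lowest p, and Nppa and Nppb. Others named, such as Gata4, Mb, Cryab, Olfml3 and the uncalled list members, were chosen with their values in view. The genes and the 37 lists (453 measured genes) were chosen with earlier results of these data known. Tested on simulated data with 200 of 8638 probes changed, the fit recovered 73% of 2-fold and 99% of 4-fold changes, with 6 false calls of 178. Unchanged probes there had the same mean in both groups, so the simulation did not hold the difference in array width. Its false calls therefore give no rate for the real arrays. Alternatives covered scaling, probe averaging, filters, arrays fitted, array lot and each array left out. Promoters are from RefSeq. Python 3.11.15 made tables and figures. With 2 arrays a group, the number of arrays limits the precision.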

Additional observations from a re-analysis of the deposited data

How the results depend on the processing

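No paired analysis was possible because the labels give these heart arrays no replicate numbers to pair by. Array lot, which does pair 1 array of each group, was a covariate in fits of all arrays and of the 4 arrays compared. Of 1087 probes called between hyperdynamic and control heart, the count became 140 after quantile normalization, 13 at a common median absolute deviation (an alternative chosen after seeing the data), 677 among probes with a value on all arrays (fewer probes tested), 307 with only the 10 heart arrays, 161 with only the 4 arrays compared, 452 within the AC lot, 221 within the AF lot, and 363 to 768 with 1 array left out, lowest without control array 1. It was 991 as deposited, 1239 with lot as covariate and 806 with lot and only the 4 arrays. With probes averaged to genes, 773 of 5702 genes were called. Higher calls were 76.7% as deposited and 64.3% after quantile normalization, against 40.0%. The median over all genes was 0.10 as deposited against -0.08. For embryonic heart against ventricle 1576 probes were called, and 3159 after quantile normalization, 2746 at a common median absolute deviation, 955 among complete probes, 1017 with the heart arrays, and 808 to 1651 with 1 array left out. For atrium against ventricle it was 713, with 11 in the heart arrays, 6 in the arrays compared and 62 to 1353 with 1 array left out. Prkaa1 changed from 0.67 to -0.064 with its probes averaged, since its other probes lie below 0. Of 98 called genes named by the rule, 98 kept their direction and call with lot as covariate, 80 as deposited, 41 after quantile normalization, 9 at a common median absolute deviation, and 61 to 71 with 1 array left out. For the other changes the cause was not tested. The number of arrays limits precision.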

Other observations

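Among called genes, 24 higher and 30 lower were called with arrays centred on medians, as deposited, after quantile normalization, with lot as covariate and with each array left out. Chosen from these after their values were seen, Meox1, a homeobox factor of the developing somites, was higher by 1.44 (0.36 to 1.80 in the group means), Fxyd5, a sodium pump regulator, by 1.28, and Lgmn, a lysosomal protease, by 0.98. Lower were Clpx, a subunit of a mitochondrial protease (-1.43), and Marchf5, a ubiquitin ligase of the mitochondrial outer membrane (-1.60).

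Genes of the mitochondrial ribosome, a family taken by name after the data were seen, were measured for 35 members. Of these 15 were lower (42.9%) and none higher (limma), 33 had a difference below 0 and the median was -0.45. Over all genes 8.21% were lower. The median control mean of the family was 1.10. Of genes outside the energy lists with a control mean of 1 to 2, 31.7% were lower. Their median was -0.52, and -0.16 after quantile normalization. Mrpl42 (-0.96) and Mrps28 (-0.90) were among the 2 called lower after quantile normalization, where the median was -0.17 and 1 member was higher. Of 17 mitochondrial carriers 2 were lower (11.8%), and of 11 genes of mitochondrial import 3 (27.3%). The median control means of these 2 families were 0.52 and 0.93. Of genes outside the energy lists with a control mean of 0 to 1, 5.31% were lower.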
